A study of Rattus norvegicus with 8 samples.

Results

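The D cyclins, their partner kinases, the inhibitors of those kinases and Myc form the switch that takes a resting cell into the cell cycle. These 10 genes, Ccnd1, Ccnd2, Ccnd3, Cdk4, Cdk6, Cdkn1a, Cdkn1b, Cdkn1c, Cdkn2c and Myc, were followed in rat liver, out of 14217 genes that the array measured through probe sets with 1 gene symbol. The family was selected on measured values of these arrays: it was chosen by the level of Ccnd1, which had been seen to be low after dexamethasone alone and not in the same way after dexamethasone plus AICAR. The values of Ccnd1 in the dexamethasone and combination arrays are therefore given as a description with no test, and Ccnd1 was left out of the counts of tested genes in every comparison but AICAR against vehicle. The 10 genes had 15 probe sets, and 6 of the genes had 1 each. Where a gene had several, the one with the highest mean over the arrays stands for the gene.

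Each of the 8 arrays measured total liver RNA of male Sprague-Dawley rats weighing 180 to 200 g, whose age the labels do not give. Every rat received an injection into the peritoneal cavity and one into muscle, and livers were taken 8 h later. The 4 groups, of 2 arrays each, received dexamethasone (1.5 mg/kg into muscle, saline into the peritoneum), AICAR (0.7 g/kg into the peritoneum, saline into muscle), dexamethasone plus AICAR at the same doses, or saline at both sites, called vehicle here. Dexamethasone is a synthetic glucocorticoid, and AICAR is a nucleoside that cells turn into an AMP mimic that activates the energy sensor AMPK. Whether the 2 arrays of a group came from 2 rats is not stated in the labels, so each p-value reflects only how far such arrays differed, which could be technical spread. Whole liver was measured, so fewer cells of a type and less RNA per cell cannot be told apart.

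D cyclins bind the kinases CDK4 and CDK6, and the active complexes phosphorylate the retinoblastoma protein, which frees E2F factors to switch on genes of DNA replication. The products of Cdkn1a (p21), Cdkn1b (p27) and Cdkn1c (p57) bind cyclin-kinase complexes of several kinds, whereas the product of Cdkn2c (p18) binds CDK4 and CDK6 themselves. In the adult liver most hepatocytes rest, and Ccnd1 is the D cyclin best known for its rise when hepatocytes re-enter the cycle, as after partial hepatectomy. Myc encodes a transcription factor of growth whose targets include genes of ribosome production and polyamine synthesis.

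Levels are the deposited log2 values. Differences are in log2 units ± SE from limma with 2 arrays per group, and p-values are limma's, adjusted by the Benjamini-Hochberg method over all 31042 probe sets. A probe set was called changed at an adjusted p under 0.05. A level under 3.84, the lowest lower quartile of the 8 arrays, is called dim.

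The arrays of 1 group correlated at 0.997 to 0.998 over all probe sets, and arrays of different groups at 0.979 to 0.993. All 11 hepatocyte markers measured were above the dim level in every group, with a summed linear level of 154700 to 154900 in dexamethasone, 151800 to 152200 in AICAR, 151900 to 152400 in dexamethasone plus AICAR and 152900 to 154200 in vehicle livers. The 10 Kupffer cell and macrophage markers summed to 2249 to 2498 in dexamethasone, 5550 to 5647 in AICAR, 209 to 219.1 in dexamethasone plus AICAR and 5055 to 5141 in vehicle livers. In dexamethasone plus AICAR livers 4 of these 10, Adgre1, Cd163, Cd5l and Aif1, were dim. Relative to vehicle, dexamethasone plus AICAR lowered 8 of 11 lymphocyte, 5 of 9 sinusoidal endothelial and 3 of 5 erythroid markers, and raised none of them. It raised 4 and lowered 4 of 11 stellate cell markers, and raised 1 of 5 cholangiocyte markers and lowered none. Of the 11 hepatocyte markers it raised 2 and lowered 4, although their sum, which the brightest markers dominate, hardly moved. In this comparison 15.9% of all genes were called higher and 18.4% lower. The 3'-minus-5' difference of the beta-actin control, a sign of RNA quality, was 2.03 to 2.04 in dexamethasone, 1.79 to 1.84 in AICAR, 1.77 to 1.83 in dexamethasone plus AICAR and 2.20 to 2.26 in vehicle livers, so it moved with the group. The part of RNA quality and of cell make-up in the results that follow was not tested.

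**Figure D1:**
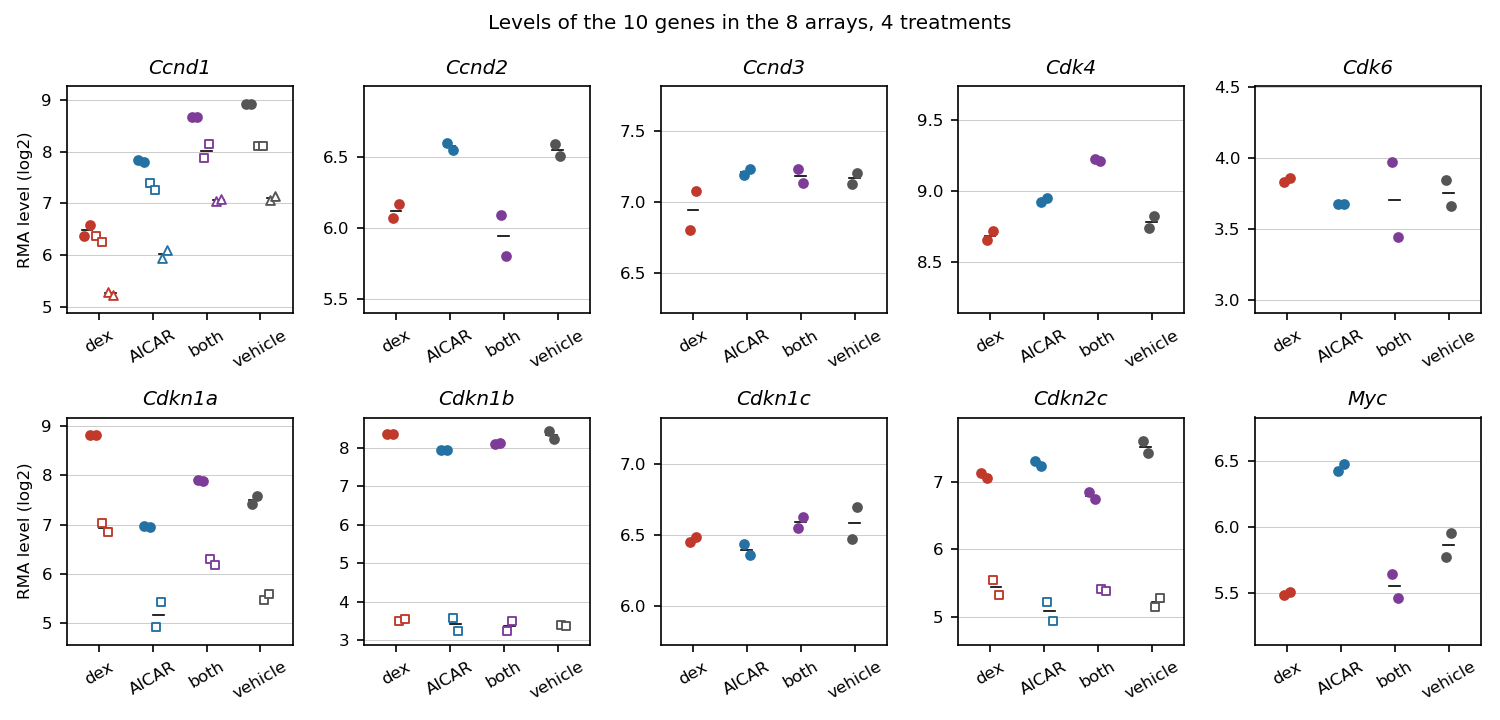
Level (log2, RMA) of each gene on every array, by treatment (dex, dexamethasone; both, dexamethasone plus AICAR). Points are arrays and short lines group means. Filled points show the probe set that stands for the gene and open points its other probe sets. Ccnd1 was lowest after dexamethasone on all 3 probe sets, Cdkn1a was highest there on both, and Myc was highest after AICAR.

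Ccnd1 was low after each agent alone and near the vehicle level after both. Its leading probe set (1383075_at) read 6.37 and 6.59 in dexamethasone, 7.84 and 7.81 in AICAR, 8.68 and 8.67 in dexamethasone plus AICAR and 8.91 and 8.92 in vehicle livers. No 2 groups overlapped, and the order from lowest to highest was dexamethasone, AICAR, dexamethasone plus AICAR, vehicle. The difference of dexamethasone from vehicle was -2.43 ± 0.09, a 5.40-fold lower level, and the 2 other probe sets stood 3.47-fold and 3.56-fold lower.

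After AICAR alone Ccnd1 passed the test as lower than vehicle. The choice of Ccnd1 did not use the AICAR arrays but did use the vehicle arrays, so this test is not independent of the choice. The leading probe set fell by 1.09 ± 0.09 relative to vehicle (limma adjusted p = 0.000223), a 2.13-fold lower level. The probe set 1371643_at fell by 0.78 ± 0.10 (limma adjusted p = 0.0024) and 1371150_at by 1.07 ± 0.08 (limma adjusted p = 0.000162). With any 1 of the 8 arrays left out, the difference ran from -1.11 to -1.07 on the leading probe set. It ran from -0.84 to -0.71 on 1371643_at and from -1.15 to -0.99 on 1371150_at. Leaving out arrays does not make the test independent of the choice.

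With both agents the levels of Ccnd1 were not the sum of those differences. The single differences from vehicle of the leading probe set add up to -3.52, whereas dexamethasone plus AICAR livers differed from vehicle by -0.24 ± 0.09. The probe set 1371643_at read 6.37 and 6.25 in dexamethasone, 7.39 and 7.26 in AICAR, 7.87 and 8.14 in dexamethasone plus AICAR and 8.10 in both vehicle livers, so there the combination overlapped vehicle. The probe set 1371150_at read 5.29 and 5.24 in dexamethasone, 5.95 and 6.11 in AICAR, 7.05 and 7.08 in dexamethasone plus AICAR and 7.06 and 7.14 in vehicle livers, again with overlap between the last pair of groups. Dexamethasone plus AICAR livers stood 2.19 ± 0.09 above dexamethasone livers and 0.85 ± 0.09 above AICAR livers on the leading probe set. These are the values for which the family was chosen, so they describe that choice and were not tested. With AICAR minus without, the dexamethasone difference was 3.28, 2.47 and 2.87 on the 3 probe sets. The combination arrays had the lowest Kupffer cell marker sum, and the part of these cells in the level of Ccnd1 was not tested.

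Among 1449 genes whose arrays spanned at least 1 log2 unit, the 6 whose levels were most like those of Ccnd1 over the 8 arrays were RT1-T24-4 (Pearson r = 0.999), Cxcl1 (0.974), Mex3b (0.972), Sgk2 (0.959), Slc34a2 (0.959) and Cyp4a3 (0.956). RT1-T24-4, which belongs to the rat major histocompatibility complex, averaged 7.93 in dexamethasone, 8.91 in AICAR, 9.47 in dexamethasone plus AICAR and 9.65 in vehicle livers. Cxcl1, a neutrophil-attracting chemokine, averaged 4.64 in dexamethasone, 5.39 in AICAR, 6.04 in dexamethasone plus AICAR and 6.47 in vehicle livers. With 4 groups of 2 arrays these correlations mainly restate the order of 4 group means, and they are given as a description. None of the other 9 genes of the family was that close: the highest r with Ccnd1 was 0.71, for Ccnd3, and the lowest -0.62, for Cdkn1a.

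The other D cyclins had other orders of the groups. Ccnd2, which is best known in lymphocytes and other cells outside the hepatocyte, read 6.07 and 6.17 in dexamethasone, 6.60 and 6.55 in AICAR, 6.09 and 5.80 in dexamethasone plus AICAR and 6.59 and 6.51 in vehicle livers. All 4 arrays with dexamethasone were below all 4 without it. Relative to vehicle it fell by 0.60 ± 0.10 after dexamethasone plus AICAR (limma adjusted p = 0.00254) and by 0.43 ± 0.10 after dexamethasone (limma adjusted p = 0.0203). It also fell relative to AICAR when dexamethasone was added, by 0.63 ± 0.10 (limma adjusted p = 0.00182). The call after dexamethasone alone was lost without any 1 of the 4 arrays compared, with adjusted p from 0.052 to 0.104. For Ccnd2 the effect of dexamethasone with AICAR minus that without was -0.20, with a 95% interval of -0.53 to 0.13. The 11 lymphocyte markers summed to 289.6 to 317.1 in dexamethasone, 410.3 to 423.3 in AICAR, 243.3 to 254.4 in dexamethasone plus AICAR and 456.2 to 471.2 in vehicle livers, and the combination and dexamethasone groups were lowest for both the sum and Ccnd2. Among them Klrb1a was dim in both groups given dexamethasone, and the part of these cells in the level of Ccnd2 was not tested.

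Ccnd3, the D cyclin that many resting and differentiated cells express, read 6.80 and 7.08 in dexamethasone, 7.19 and 7.23 in AICAR, 7.23 and 7.13 in dexamethasone plus AICAR and 7.13 and 7.20 in vehicle livers. It passed the test in no comparison. The difference of dexamethasone from vehicle was -0.22, with a 95% interval of -0.45 to 0.00 and an adjusted p of 0.168 by limma. Its 2 dexamethasone arrays lay 0.28 apart, and without replicate 2 of them the adjusted p was 0.0408 against vehicle, and 0.0331 for the combination against dexamethasone.

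**Figure D2:**
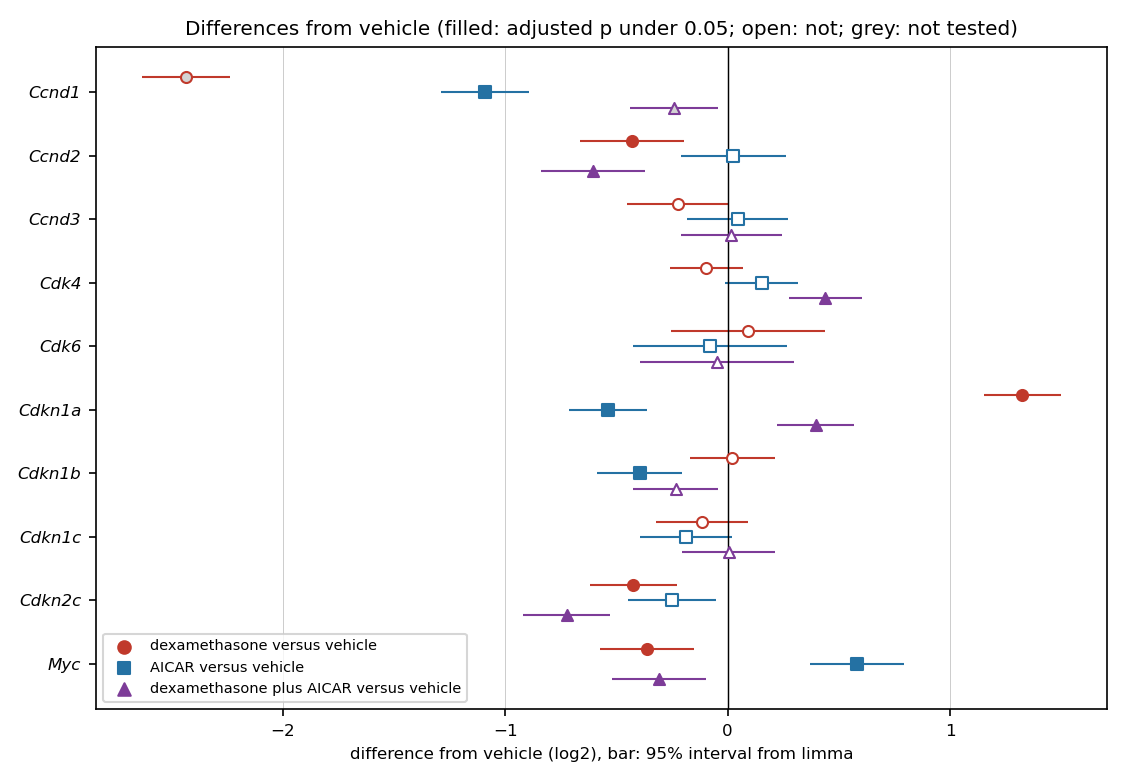
Difference from vehicle (log2) of each gene under dexamethasone, AICAR and both, each from 2 arrays per group, with 95% intervals from limma. Filled symbols passed an adjusted p of 0.05, open ones did not, and grey ones were not tested. Cdkn1a lay 1.32 above vehicle after dexamethasone, 0.54 below it after AICAR and 0.40 above it after both.

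Of the kinases, Cdk4 rose with both agents against each of the other groups. It read 8.65 and 8.71 in dexamethasone, 8.92 and 8.95 in AICAR, 9.22 and 9.21 in dexamethasone plus AICAR and 8.74 and 8.82 in vehicle livers. The combination arrays were above all others. Relative to vehicle Cdk4 rose by 0.44 ± 0.07 after both agents (limma adjusted p = 0.00208), relative to dexamethasone by 0.53 ± 0.07 (limma adjusted p = 0.00108) and relative to AICAR by 0.28 ± 0.07 (limma adjusted p = 0.0167). The last of these was lost without any 1 of its 4 arrays (adjusted p from 0.0586 to 0.0862) and with cyclic loess between arrays (0.0687). The single agents gave -0.10, with a 95% interval of -0.26 to 0.07, for dexamethasone and 0.15, with an interval of -0.01 to 0.32, for AICAR. For Cdk4 the effect of dexamethasone with AICAR minus that without was 0.38 ± 0.10 (limma adjusted p = 0.038). That call was lost without any 1 of the 8 arrays, with adjusted p from 0.0567 to 0.115, and also with cyclic loess between arrays (0.115) and with centring on the brighter probe sets (0.054).

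Cdk6, the other partner of the D cyclins, lay near the dim level, at 3.83 and 3.86 in dexamethasone, 3.67 and 3.68 in AICAR, 3.97 and 3.44 in dexamethasone plus AICAR and 3.85 and 3.66 in vehicle livers. The dexamethasone arrays lay above the AICAR arrays and the other pairs of groups overlapped, and it passed no test. Without replicate 1 of the combination its adjusted p against dexamethasone was 0.0496. At this signal a change of Cdk6 was not detectable.

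The promoters of 5 of the 10 genes, Ccnd3, Cdk4, Cdkn1a, Cdkn1b and Cdkn2c, were in the RefSeq table (build GRCr8), as windows of 300 bases from 250 before to 50 after the annotated start. They were searched on both strands for CACGTG (the E-box bound by MYC and other factors), TGACGTCA and its part TGACG (the cAMP response element, whose short form overlaps the long one), TTTNGCGC (bound by E2F), AGAACA and TGTTCT separated by any 3 letters (the glucocorticoid response element) and the p53 response element of 20 letters with at most 1 letter off. Cdk4 and Cdkn1a are shown because their dexamethasone effect with AICAR differed from that without in the fit over all arrays. That of Myc differed too, but its promoter was not among the 5. These calls were lost when most single arrays were left out. In the Cdk4 window (chr7:64771203-64771502, plus strand) the capitals mark CACGTG, and in the Cdkn1a window (chr20:7150682-7150981, plus strand) they mark the match to the p53 element.
Cdk4: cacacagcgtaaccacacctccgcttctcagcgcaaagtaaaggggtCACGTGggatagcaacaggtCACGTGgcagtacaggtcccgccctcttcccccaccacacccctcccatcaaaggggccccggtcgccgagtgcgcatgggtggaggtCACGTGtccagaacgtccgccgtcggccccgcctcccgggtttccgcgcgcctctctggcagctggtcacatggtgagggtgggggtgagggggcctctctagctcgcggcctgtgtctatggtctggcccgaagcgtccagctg
Cdkn1a: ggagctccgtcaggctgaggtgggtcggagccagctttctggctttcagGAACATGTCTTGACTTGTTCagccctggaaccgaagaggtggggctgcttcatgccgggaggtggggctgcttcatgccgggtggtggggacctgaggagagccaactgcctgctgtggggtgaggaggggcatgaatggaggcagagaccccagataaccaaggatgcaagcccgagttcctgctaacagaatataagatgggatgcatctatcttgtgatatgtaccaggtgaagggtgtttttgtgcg
CACGTG stood 3 times in the Cdk4 window, beginning 203, 183 and 95 bases before the start, and in no other of the 5 windows. Of 33469 promoters of this length 6.42% held it at least once and 0.0568% at least 3 times. The p53 element of Cdkn1a began 201 bases before the start, and 0.0717% of promoters held one. TGACG, present in 21.2% of promoters, began 243 bases before the start of Cdkn1a, 52 before that of Ccnd3 and 92 before that of Cdkn1b. The 5 windows held no TGACGTCA (1.83% of promoters), TTTNGCGC (1.28%) or glucocorticoid response element (0.0149%). A match says only that these letters are there.

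Cdkn1a, which encodes the p53 target p21, moved in opposite directions under the single agents. Its leading probe set (1388674_at) read 8.83 and 8.82 in dexamethasone, 6.96 and 6.96 in AICAR, 7.91 and 7.88 in dexamethasone plus AICAR and 7.42 and 7.57 in vehicle livers. No groups overlapped: dexamethasone was highest, then the combination, then vehicle, then AICAR. Relative to vehicle it rose by 1.32 ± 0.08 after dexamethasone (limma adjusted p = 9.07e-06), a 2.50-fold higher level. It fell by 0.54 ± 0.08 after AICAR (limma adjusted p = 0.00336) and rose by 0.40 ± 0.08 after both (limma adjusted p = 0.00488).

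Adding AICAR to dexamethasone lowered Cdkn1a by 0.93 ± 0.08 (limma adjusted p = 7.67e-05), and adding dexamethasone to AICAR raised it by 0.93 ± 0.08 (limma adjusted p = 3.85e-05). The second probe set (1387391_at) read 7.03 and 6.85 in dexamethasone, 4.91 and 5.42 in AICAR, 6.29 and 6.19 in dexamethasone plus AICAR and 5.47 and 5.59 in vehicle livers. It gave the same order of groups, with a rise of 1.41 ± 0.15 after dexamethasone (limma adjusted p = 0.000337). On that probe set the difference of AICAR from vehicle was -0.36 (limma adjusted p = 0.163), and it was called without replicate 2 of AICAR (adjusted p = 0.0263). Its rise after both agents against vehicle was lost without vehicle replicate 1 (adjusted p = 0.051) or combination replicate 1 (0.0555), and its fall against dexamethasone without dexamethasone replicate 1 (0.0795) or combination replicate 2 (0.0749). The effect of dexamethasone with AICAR minus that without was -0.39 ± 0.11 on the leading probe set (limma adjusted p = 0.0423) and -0.34, with a 95% interval of -0.83 to 0.16, on the second. The first of these was lost without any 1 of the arrays but vehicle replicate 2 (adjusted p from 0.084 to 0.124) and with the mean of both probe sets (0.088), and that of the second passed without replicate 1 of AICAR (0.0495).

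Cdkn1b, the p27 gene, was lower after AICAR. The probe set 1373812_at read 8.37 and 8.36 in dexamethasone, 7.94 and 7.96 in AICAR, 8.10 and 8.12 in dexamethasone plus AICAR and 8.44 and 8.24 in vehicle livers. All 4 arrays with AICAR were below all 4 without it. Relative to vehicle it fell by 0.40 ± 0.08 after AICAR (limma adjusted p = 0.0182). The call was lost without vehicle replicate 1 (adjusted p = 0.095), AICAR replicate 1 (0.097) or AICAR replicate 2 (0.0724), in a fit of those groups alone (0.0601) and with the mean of both probe sets (0.16). The combination gave -0.23 against vehicle (limma adjusted p = 0.0725), which passed without vehicle replicate 2 (0.0322), and -0.25 against dexamethasone (limma adjusted p = 0.0651), which passed without either vehicle array (0.0425). The second probe set, 1369192_at, was dim on all 8 arrays.

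Cdkn1c, the p57 gene, passed no test. It read 6.45 and 6.48 in dexamethasone, 6.44 and 6.36 in AICAR, 6.55 and 6.63 in dexamethasone plus AICAR and 6.47 and 6.70 in vehicle livers. Its largest difference among those from vehicle was -0.19 after AICAR, with a 95% interval of -0.40 to 0.02.

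Cdkn2c, the p18 gene, was lowest with both agents on one probe set, and its other probe set did not show this. On 1370054_at it read 7.14 and 7.05 in dexamethasone, 7.30 and 7.23 in AICAR, 6.85 and 6.74 in dexamethasone plus AICAR and 7.60 and 7.43 in vehicle livers, with no overlap between groups. Relative to vehicle it fell by 0.72 ± 0.09 after both agents (limma adjusted p = 0.000335) and by 0.42 ± 0.09 after dexamethasone (limma adjusted p = 0.00967). Relative to AICAR it fell by 0.47 ± 0.09 when dexamethasone was added (limma adjusted p = 0.00326), and relative to dexamethasone by 0.30 ± 0.09 when AICAR was added (limma adjusted p = 0.04). The dexamethasone call was lost when vehicle replicate 1 (adjusted p = 0.0632) or replicate 2 of dexamethasone (0.0575) was left out. The last call was lost without any 1 of the 6 arrays other than vehicle, with adjusted p from 0.0578 to 0.205, and in a fit of those groups alone (0.0558). With AICAR minus without, the effect of dexamethasone was -0.05, with a 95% interval of -0.33 to 0.23. On this probe set the groups stood in the same order as in the lymphocyte marker sum, whose part in it was not tested.

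The second Cdkn2c probe set, 1378711_x_at, read 5.55 and 5.32 in dexamethasone, 5.22 and 4.94 in AICAR, 5.41 and 5.39 in dexamethasone plus AICAR and 5.14 and 5.28 in vehicle livers. It passed no test, and after both agents it gave 0.18 against vehicle, with a 95% interval of -0.08 to 0.45, opposite in sign to the first. Without replicate 1 of AICAR its difference of the combination from AICAR had an adjusted p of 0.031. With the mean of both probe sets the calls of Cdkn2c were lost in dexamethasone against vehicle (adjusted p = 0.418), in the combination against AICAR (0.492) and in the combination against dexamethasone (0.168).

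Myc rose after AICAR and fell wherever dexamethasone was added. It read 5.49 and 5.51 in dexamethasone, 6.42 and 6.47 in AICAR, 5.65 and 5.46 in dexamethasone plus AICAR and 5.77 and 5.95 in vehicle livers. The dexamethasone and combination arrays overlapped, both lay below vehicle, and AICAR lay above. Relative to vehicle it rose by 0.58 ± 0.09 after AICAR (limma adjusted p = 0.00552). It fell by 0.89 ± 0.09 in dexamethasone plus AICAR relative to AICAR livers (limma adjusted p = 0.000144). Both calls held without any 1 array. The Kupffer cell marker sum was also highest in AICAR livers, as was the sum of the 11 stellate cell and fibroblast markers, at 4008 to 4194 in dexamethasone, 5796 to 5869 in AICAR, 3631 to 3679 in dexamethasone plus AICAR and 4828 to 4840 in vehicle livers. Their part in the level of Myc was not tested.

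The falls of Myc against vehicle were smaller. Myc fell by 0.36 ± 0.09 after dexamethasone (limma adjusted p = 0.0263) and fell by 0.31 ± 0.09 after both agents (limma adjusted p = 0.0384). The first was lost without vehicle replicate 2 (adjusted p = 0.153) or either dexamethasone array (0.101 and 0.0832), and in a fit of those groups alone (0.0505). The second was lost without any 1 array but vehicle replicate 1 and combination replicate 1, with adjusted p from 0.0536 to 0.231, under centring on the brighter probe sets (0.0546) and in a fit of those groups alone (0.0768). The effect of dexamethasone with AICAR minus that without was -0.53 ± 0.13 (limma adjusted p = 0.0281), lost without any 1 array but vehicle replicate 2 and combination replicate 1 (adjusted p from 0.0615 to 0.0991).

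**Figure D3:**
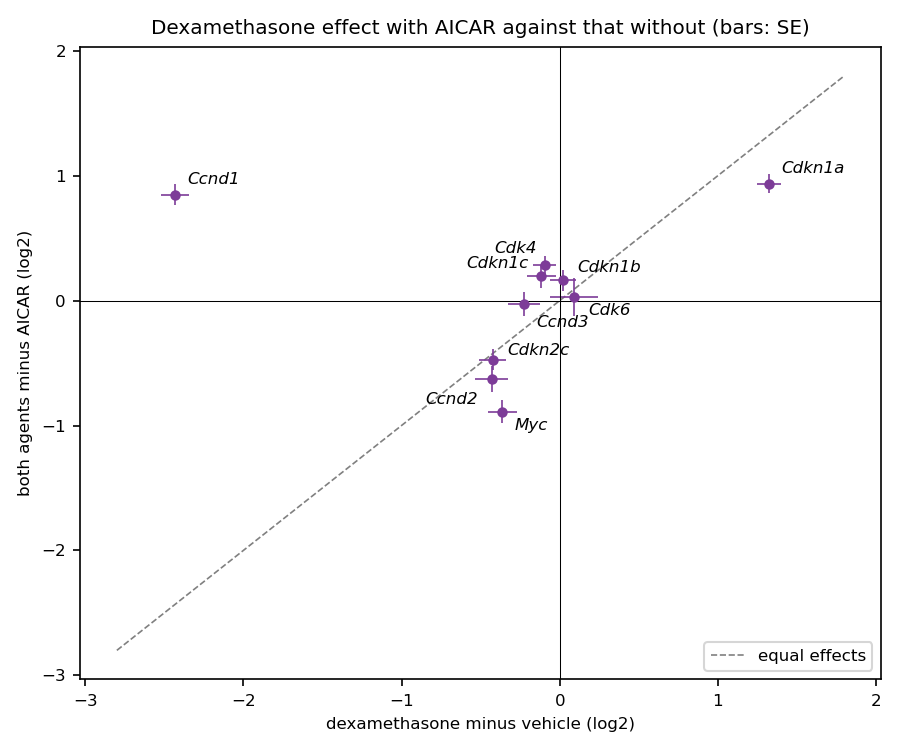
Effect of dexamethasone in the presence of AICAR (both agents minus AICAR, log2, vertical axis) against its effect alone (dexamethasone minus vehicle, log2, horizontal axis) for the 10 genes, with SE bars from 2 arrays per group. The dashed line marks equal effects. Ccnd1 lies at -2.43 and 0.85, and Cdkn1a at 1.32 and 0.93.

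Counted over the family, dexamethasone against vehicle raised 1 (Cdkn1a) and lowered 3 (Ccnd2, Cdkn2c, Myc) of the 9 tested genes, where 8.37% of all genes were called higher and 14.3% lower. AICAR against vehicle raised 1 (Myc) and lowered 3 (Ccnd1, Cdkn1a, Cdkn1b) of 10, or 1 and 2 of 9 without Ccnd1, where 6.22% of all genes were called higher and 8.96% lower. Dexamethasone plus AICAR against vehicle raised 2 (Cdk4, Cdkn1a) and lowered 3 (Ccnd2, Cdkn2c, Myc) of 9, where 15.9% were called higher and 18.4% lower. The median difference of the tested genes was -0.12 after dexamethasone, -0.13 after AICAR and -0.05 after both, against -0.03, 0.00 and -0.01 for all genes. The comparisons with vehicle share its 2 arrays, and their counts are not independent of each other.

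Adding AICAR to dexamethasone raised 1 (Cdk4) and lowered 2 (Cdkn1a, Cdkn2c) of 9, where 14% of all genes were called higher and 11.3% lower. Adding dexamethasone to AICAR raised 2 (Cdk4, Cdkn1a) and lowered 3 (Ccnd2, Cdkn2c, Myc) of 9, where 18.7% were called higher and 19.4% lower. The effect of dexamethasone with AICAR minus that without was positive and called for 1 (Cdk4) and negative and called for 2 (Cdkn1a, Myc) of 9, where 11.9% of all genes were called positive and 8.05% negative. The choice of the family used these contrasts through Ccnd1, and counts this small over 9 or 10 genes set nothing apart from the background. Centring on the brighter probe sets moved the share of higher genes among all genes called to 47.2% after dexamethasone, against 36.9% as deposited. That share was 55.2% against 41% after AICAR and 49% against 59.7% for the effect of dexamethasone with AICAR minus that without, where cyclic loess gave 48.1%.

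The other genes of the pathway were read in 5 lists, of which 89 of 100 genes were measured. Among 25 measured G1/S partners of the D cyclins and kinases, dexamethasone against vehicle raised 1 and lowered 8, AICAR raised none and lowered 4, and both agents raised 4 and lowered 10. The medians of the list were -0.10, -0.12 and -0.21 against -0.03, 0.00 and -0.01 for all genes. Of all genes 8.37% were called higher and 14.3% lower after dexamethasone, 6.22% and 8.96% after AICAR and 15.9% and 18.4% after both agents. Cdkn3, which encodes a phosphatase that acts on cyclin-dependent kinases and is expressed in cycling cells, averaged 3.92 in dexamethasone, 7.07 in AICAR, 4.18 in dexamethasone plus AICAR and 7.73 in vehicle livers. It fell by 3.81 ± 0.16 after dexamethasone (limma adjusted p = 1.43e-06) and by 3.54 ± 0.16 after both agents (limma adjusted p = 9.88e-07), so it was low in the combination where Ccnd1 was near the vehicle level. Ccna2, the cyclin of S phase, averaged 2.73 in dexamethasone, 5.08 in AICAR, 2.08 in dexamethasone plus AICAR and 5.93 in vehicle livers and was dim in both groups given dexamethasone, which leaves the size of its fall uncertain (limma adjusted p = 2.3e-06 and 3.63e-07 against vehicle). Cdk7, the kinase that activates other cyclin-dependent kinases, rose by 0.56 ± 0.08 after dexamethasone (limma adjusted p = 0.00193) and by 0.71 ± 0.08 after both agents (limma adjusted p = 3e-04).

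The genes of DNA replication that E2F factors drive were read next. Of 18 measured, dexamethasone against vehicle raised none and lowered 8, AICAR raised 2 and lowered none, and both agents raised 2 and lowered 10, with medians of -0.31, 0.12 and -0.41. The shares of all genes called lower were 14.3% after dexamethasone, 8.96% after AICAR and 18.4% after both agents, and those called higher were 8.37%, 6.22% and 15.9%. Adding dexamethasone to AICAR raised none and lowered 13, where 18.7% of all genes were called higher and 19.4% lower. Adding AICAR to dexamethasone raised none and lowered 1, where 14% were called higher and 11.3% lower. Mcm6, a subunit of the replicative helicase, averaged 4.47 in dexamethasone, 5.83 in AICAR, 4.26 in dexamethasone plus AICAR and 5.58 in vehicle livers. It fell by 1.11 ± 0.11 after dexamethasone (limma adjusted p = 0.000155) and by 1.32 ± 0.11 after both agents (limma adjusted p = 3.55e-05). Pcna, the sliding clamp of the replication fork, fell by 0.61 ± 0.08 after both agents relative to vehicle (limma adjusted p = 0.000384). The 2 genes called higher after both agents were Fen1 and Tyms. Without vehicle replicate 1 they differed from vehicle by 0.29 and 0.38. Prim1, the DNA primase, was raised by AICAR by 0.81 ± 0.10 (limma adjusted p = 0.00173). Kupffer cell and lymphocyte markers were also lowest in the groups given dexamethasone, and their part in these falls was not tested.

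**Figure D4:**
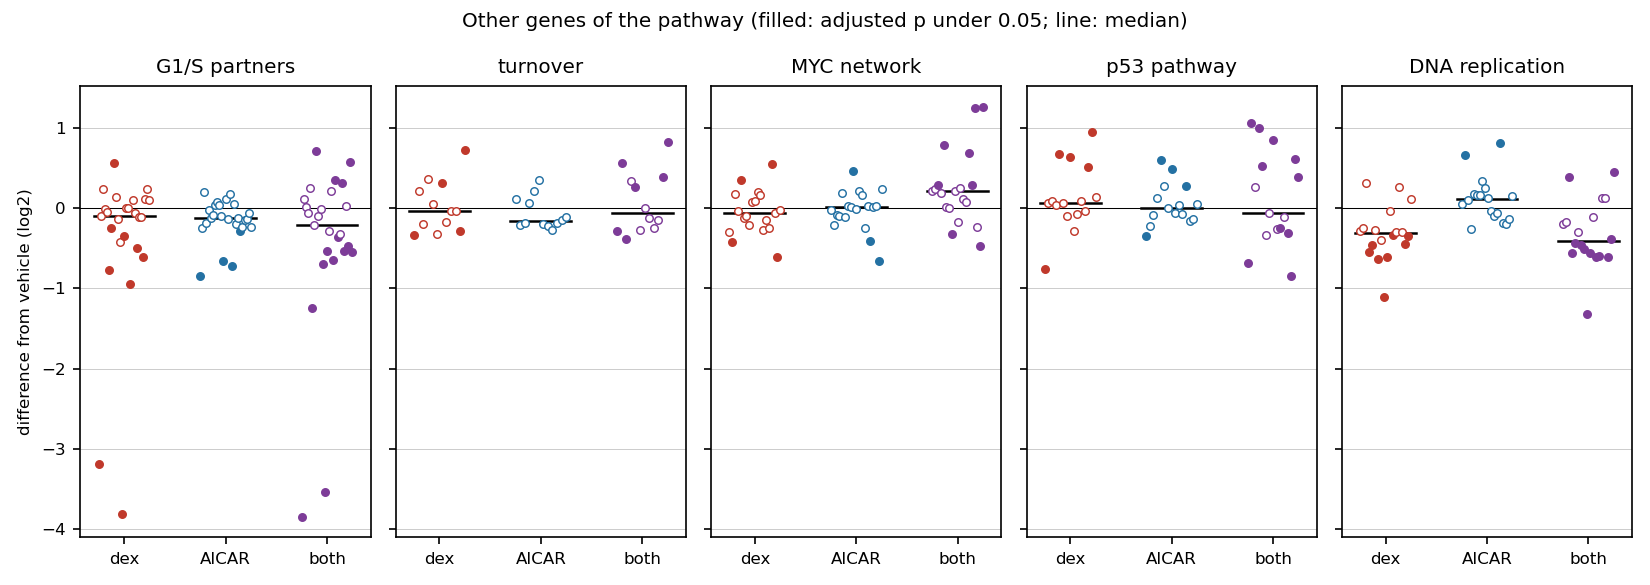
Difference from vehicle (log2) of the other genes of the pathway in 5 lists, under dexamethasone (dex), AICAR and both agents. Each point is a gene, filled where its adjusted p was under 0.05, and lines are medians over the list. The replication list has medians of -0.31, 0.12 and -0.41, and the lowest points of the first panel are Cdkn3 and Ccna2.

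Genes of the MYC network were read beside Myc itself. Of 19 measured genes of the MYC network and of rRNA and polyamine synthesis, dexamethasone against vehicle raised 2 and lowered 2, AICAR raised 1 and lowered 2, and both agents raised 6 and lowered 2, with medians of -0.06, 0.02 and 0.21. Over all genes 8.37% were called higher and 14.3% lower after dexamethasone, 6.22% and 8.96% after AICAR and 15.9% and 18.4% after both agents. The medians over all genes were -0.03, 0.00 and -0.01 in the 3 comparisons, and 11 of the 19 were not called after both agents. The effect of dexamethasone with AICAR minus that without was positive and called for 8 and negative and called for none, where 11.9% and 8.05% of all genes were so called. Odc1, the first enzyme of polyamine synthesis, averaged 9.62 in dexamethasone, 9.08 in AICAR, 10.31 in dexamethasone plus AICAR and 9.06 in vehicle livers. It rose by 1.25 ± 0.07 after both agents (limma adjusted p = 4.2e-06). Srm, spermidine synthase, averaged 6.83 in dexamethasone, 7.10 in AICAR, 8.13 in dexamethasone plus AICAR and 6.86 in vehicle livers, and it rose by 1.27 ± 0.09 after both agents (limma adjusted p = 2.31e-05). Both were highest in the combination, where Myc stood 0.31 below vehicle, and the part of Myc in their levels was not tested. Nop56, a core protein of box C/D ribonucleoproteins that modify rRNA, averaged 7.89 in dexamethasone, 8.07 in AICAR, 8.73 in dexamethasone plus AICAR and 8.04 in vehicle livers. Its effect of dexamethasone with AICAR minus that without was 0.81 ± 0.11 (limma adjusted p = 0.00155). Other genes of the list were called lower. Mxd3 was 1 of the 2 lowered by both agents, at -0.30 against vehicle without vehicle replicate 1. Fbl fell by 0.43 after dexamethasone, a call lost in a fit of those groups alone (limma adjusted p = 0.0627). Nop58 was called lower after AICAR, at -0.39 against vehicle without vehicle replicate 2.

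Other genes of the p53 pathway moved in both directions. Of 15 measured, dexamethasone against vehicle raised 4 and lowered 1, AICAR raised 3 and lowered 1, and both agents raised 6 and lowered 4, with medians of 0.06, 0.01 and -0.06. Over all genes 8.37% were called higher and 14.3% lower after dexamethasone, 6.22% and 8.96% after AICAR and 15.9% and 18.4% after both. Ccng1, a p53 target that encodes cyclin G1, averaged 8.03 in dexamethasone, 7.76 in AICAR, 9.04 in dexamethasone plus AICAR and 7.97 in vehicle livers. It rose by 1.07 ± 0.09 after both agents relative to vehicle (limma adjusted p = 5.87e-05). Cdkn1a after both agents also lay above vehicle, by 0.40, and it lay 0.93 below its dexamethasone level. Gadd45a, a stress-induced gene of growth arrest, rose by 0.99 ± 0.08 after both agents (limma adjusted p = 3.6e-05). Sesn2, a stress-induced inhibitor of mTORC1 signalling, averaged 8.48 in dexamethasone, 7.80 in AICAR, 7.12 in dexamethasone plus AICAR and 7.97 in vehicle livers. It rose by 0.52 ± 0.08 after dexamethasone (limma adjusted p = 0.00184) and fell by 0.85 ± 0.08 after both (limma adjusted p = 7.06e-05). Mdm4, an inhibitor of p53, was raised in all 3 treated groups, by 0.64 ± 0.07 after dexamethasone (limma adjusted p = 0.000369), 0.49 ± 0.07 after AICAR (limma adjusted p = 0.0036) and 0.85 ± 0.07 after both (limma adjusted p = 4.47e-05).

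Genes of the turnover of D cyclins and inhibitors were read last. Of 12 measured, dexamethasone against vehicle raised 2 and lowered 2, AICAR changed none, and both agents raised 4 and lowered 2, with medians of -0.03, -0.17 and -0.06. Over all genes 8.37% were called higher and 14.3% lower after dexamethasone, 6.22% and 8.96% after AICAR, and 15.9% and 18.4% after both agents. Skp1, a subunit of the ubiquitin ligase that marks p27 for destruction, averaged 12.63 in dexamethasone, 11.79 in AICAR, 12.72 in dexamethasone plus AICAR and 11.89 in vehicle livers. It rose by 0.73 ± 0.07 after dexamethasone (limma adjusted p = 0.000138) and by 0.83 ± 0.07 after both agents (limma adjusted p = 4.04e-05). Rbx1, a ring finger subunit of the same ligases, averaged 9.86 in dexamethasone, 10.01 in AICAR, 10.54 in dexamethasone plus AICAR and 10.15 in vehicle livers, and it rose by 0.38 ± 0.07 after both agents (limma adjusted p = 0.00351). After dexamethasone alone Rbx1 fell by 0.29 ± 0.07 (limma adjusted p = 0.0211), a call lost without vehicle replicate 1 (adjusted p = 0.0733), vehicle replicate 2 (0.0917) or replicate 1 of dexamethasone (0.0883), in a fit of those groups alone (0.0726) and with the mean of its probe sets (0.262). Cks1b, a cofactor for p27 recognition, rose by 0.56 ± 0.08 after both agents (limma adjusted p = 0.000701). The 2 genes called lower after both agents were Cul1 and Ambra1. Ambra1 fell by 0.28, a call lost in a fit of those groups alone (limma adjusted p = 0.0564) and with the mean of its probe sets (0.829). Cul1 differed from vehicle by -0.35 without vehicle replicate 2 and by -0.34 without combination replicate 2. Skp2, also in this list, was not measured.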

How the data were processed

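Liver RNA was hybridised to 8 Affymetrix rat arrays, 2 in each of 4 groups. The deposited values are log2 levels per probe set. Per the submitters' processing notes the authors used affy's RMA, and no version is given in the sources used here. Quantile normalization, a part of RMA, can hide a shift common to most genes, and the values carry no detection call. From them, limma 3.58.1 in R 4.3.3 fitted 1 coefficient per group over all 8 arrays (4 residual and 4.58 prior degrees of freedom) on 31042 probe sets, after removal of 57 array controls. P-values were adjusted by the Benjamini-Hochberg method, with calls under 0.05. An exact permutation test of 2 against 2 arrays cannot go below 0.333 (two-sided) and was not used. Of the probe sets, 20826 had 1 gene symbol, 436 several and 9780 none here, and only those with 1 were named, with symbols updated by gene ID to the RefSeq table of GRCr8. Levels of different probe sets were combined in the marker sums, the means of a gene's probe sets and the 3'-minus-5' control difference. Those of 1 gene were ranked to choose its leading probe set. Levels of different genes were not otherwise compared. The script was tested on simulated data. The number of arrays limits the precision.

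The 10 genes, the 5 pathway lists and the 7 marker lists were chosen with earlier results of these data known. All 10 genes are named. From each pathway list, named genes come from the up to 3 called per direction and comparison with the smallest adjusted p. Alternatives were cyclic loess, centring on the brighter probe sets, a trended and robust prior, removal of dim probe sets, fits of the compared groups alone, a replicate block, the mean of a gene's probe sets, a minimum change of 1 log2 unit and leaving out each array.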

Additional observations from a re-analysis of the deposited data

Results flagged for a closer look

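The effect of dexamethasone in the presence of AICAR differed from its effect without AICAR for 3 of the 9 tested genes, by limma's test of that difference over all 8 arrays, where 11.9% of all genes were called positive and 8.05% negative. Counts this small set nothing apart from that background. For Cdk4 the effect was 0.28 with AICAR and -0.10 without, a difference of 0.38 ± 0.10 (adjusted p = 0.038). For Cdkn1a it was 0.93 with AICAR and 1.32 without, a difference of -0.39 ± 0.11 (adjusted p = 0.0423), so that both effects were rises and the one with AICAR was smaller. For Myc it was -0.89 with AICAR and -0.36 without, a difference of -0.53 ± 0.13 (adjusted p = 0.0281). Each of these calls was lost when most single arrays were left out, with adjusted p up to 0.115 for Cdk4, 0.124 for Cdkn1a and 0.0991 for Myc. That of Cdk4 was also lost with cyclic loess (0.115) and with centring on the brighter probe sets (0.054), and that of Cdkn1a with the mean of its probe sets (0.088).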

How the results depend on the processing

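With 2 arrays per group, counts of called genes rested on single arrays. With 1 array left out, the tested genes called numbered 2 to 4 in dexamethasone against vehicle (2 without either vehicle or either dexamethasone array, against 4 with all), 3 to 4 in AICAR against vehicle, and 0 to 2 for the effect of dexamethasone with AICAR minus that without (against 3). A minimum change of 1 log2 unit left 1 gene in dexamethasone against vehicle, 1 in AICAR against vehicle and 0 in the other 4 comparisons; the cause is the added minimum. The difference of Ccnd1 between both agents and vehicle ran from -0.23 to 0.0390 on probe set 1371643_at and from -0.0689 to 0.00904 on 1371150_at with 1 array left out, positive without replicate 1 of the combination and without vehicle replicate 2, and was 0.00307 on 1371150_at under centring. Ambra1 in dexamethasone against vehicle, which fell by 0.34, gave 0.0177 with the mean of its probe sets (adjusted p = 0.889); the cause was not tested. Deviations of same-numbered arrays correlated at -0.04 to 0.16, over 0.1 in 1 of 6 pairs of groups, so the numbers were not taken to pair arrays. With the replicate block, Myc in both agents against vehicle (adjusted p = 0.0537) and Cdkn1a for the effect of dexamethasone with AICAR minus that without (0.0587) lost their calls. Cdk4 lost that last call under cyclic loess (0.115) and centring (0.054), Cdkn1a (0.088) and Cdkn1b in AICAR against vehicle (0.16) with the mean of probe sets. Fits of the compared groups alone lost Myc in dexamethasone against vehicle (0.0505) and in both agents against vehicle (0.0768), and Cdkn2c in both agents against dexamethasone (0.0558). Calls were gained by Cdkn1b in both agents against dexamethasone with cyclic loess (0.0357), removal of dim probe sets (0.0473) and the trended prior (0.00803), by Cdkn1b in both agents against vehicle (0.0122) and Cdkn2c in AICAR against vehicle (0.0363) with that prior, and by the second Cdkn2c probe set in both agents against AICAR with cyclic loess (0.0459). Dim signal limits Cdk6 and the second Cdkn1b probe set.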
